A study of Homo sapiens with 12 samples.

Results

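The genes of 10 enzymes that form or convert androgens and estrogens were examined in NCI-H295R cells, a human adrenocortical carcinoma line that makes cortisol and other steroids. The members were taken from the gene table by name, by a rule that uses no measured value. Earlier results of these data were known when they were chosen. They are CYP19A1 (aromatase), 5 genes of the 17beta-hydroxysteroid dehydrogenase series (HSD17B1, HSD17B3, HSD17B4, HSD17B8 and HSD17B12) and the reductases SRD5A1 and SRD5A3. The others are the aldo-keto reductases AKR1C3, which has 17beta-hydroxysteroid dehydrogenase activity, and AKR1C1. All 10 were found once in the table of 60662 genes, and 9 of them were among the 16815 genes abundant enough to be tested. Cells were held without serum for 12 h and then given, for 24 h, vehicle (VEH, 0.1% DMSO), CJ28 at 30 µM or metyrapone (MET) at 30 µM, with 4 biological replicates in each of the 3 groups. CJ28 is a benzimidazolylurea derivative and MET an inhibitor of the last step of cortisol synthesis, and both were studied as inhibitors of cortisol production. All groups came from a single tumour line, so the levels describe this line and need not hold for adrenal tissue.

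Values are in TPM, a length-corrected measure of a transcript's abundance relative to the whole library, and levels of different genes can therefore be set side by side. TPM carries no read number, so the depth of single values is unknown. In bulk RNA of this kind, fewer cells of a type and less RNA per cell cannot be told apart. The 6 adrenocortical markers (NR5A1, CYP11A1, CYP21A2, MC2R, INHA and FDX1) were all present. Their summed TPM was 183 to 185 in VEH, 179 to 186 in MET and 87.0 to 91.9 in CJ28. By the test described further on, 6 of 6 fell in CJ28 against VEH, beside 37.1% of all tested genes. The 6 markers of other cell types (PTPRC, PECAM1, COL1A1, ALB, LHCGR and CGA) summed to between 0.32 and 1.23 TPM in the 12 samples, and none of them was abundant enough to be tested. Structural RNAs and mitochondrial transcripts took 61.1% to 62.3% of all TPM in CJ28, against 57.0% to 59.9% in VEH and 57.3% to 59.4% in MET. The part of this shift, and of the fall of the adrenal markers, in the changes given here was not tested beyond 2 rescalings. Their values in CJ28 against VEH stand beside the tested members and some of the other results.

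In the adrenal cortex, androgens leave the pathway to cortisol at CYP17A1, which makes dehydroepiandrosterone, and 3beta-hydroxysteroid dehydrogenase turns this into androstenedione. From androstenedione, reducing 17beta-hydroxysteroid dehydrogenases such as AKR1C3 and HSD17B3 form testosterone, and aromatase forms estrogens. The 5alpha-reductases turn testosterone into dihydrotestosterone and also act on related steroids. The adrenal gland releases mainly weak androgens and their sulfates, and much of their activation takes place in other tissues. Several enzymes that carry a steroid name do most of their known work in lipid metabolism. HSD17B4 acts in peroxisomal fatty acid oxidation, HSD17B8 in mitochondrial and HSD17B12 in microsomal fatty acid synthesis, and SRD5A3 makes dolichol for protein glycosylation.

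Promoter sequences are shown for the members with the clearest differences between groups, AKR1C3, SRD5A1 and SRD5A3, together with AKR1C1, the near copy of AKR1C3, and 1 start site of CYP19A1, so that start sites of members that moved can be set beside those of members that did not pass the test. The windows are those of RefSeq on GRCh38.p14, 250 bases before to 50 bases after a start site, written 5′ to 3′ on the strand of the gene. RefSeq windows were found for 8 of the 10 genes, 15 windows in all, and HSD17B1 and HSD17B12 had none. Capitals mark matches to the motifs described after the sequences.
AKR1C3 at chr10:5048531-5048830 (+): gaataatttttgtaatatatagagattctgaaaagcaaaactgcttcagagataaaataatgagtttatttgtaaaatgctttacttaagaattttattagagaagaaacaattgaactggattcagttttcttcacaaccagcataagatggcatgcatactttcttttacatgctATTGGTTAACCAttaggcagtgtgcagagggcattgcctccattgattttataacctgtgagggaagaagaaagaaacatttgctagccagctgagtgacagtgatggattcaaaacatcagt
AKR1C3 at chr10:5094164-5094463 (+): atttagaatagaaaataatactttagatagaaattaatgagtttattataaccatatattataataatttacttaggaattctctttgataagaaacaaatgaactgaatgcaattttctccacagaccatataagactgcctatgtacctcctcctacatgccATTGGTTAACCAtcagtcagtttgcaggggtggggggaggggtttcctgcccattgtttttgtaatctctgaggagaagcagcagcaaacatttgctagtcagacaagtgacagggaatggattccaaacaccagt
AKR1C1 at chr10:4963165-4963464 (+): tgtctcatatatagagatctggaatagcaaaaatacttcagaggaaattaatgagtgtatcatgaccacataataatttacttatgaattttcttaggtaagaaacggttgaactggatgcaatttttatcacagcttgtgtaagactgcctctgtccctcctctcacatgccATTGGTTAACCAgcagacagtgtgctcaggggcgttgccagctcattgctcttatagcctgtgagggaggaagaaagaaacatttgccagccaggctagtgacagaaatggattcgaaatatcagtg
SRD5A1 at chr5:6633190-6633489 (+): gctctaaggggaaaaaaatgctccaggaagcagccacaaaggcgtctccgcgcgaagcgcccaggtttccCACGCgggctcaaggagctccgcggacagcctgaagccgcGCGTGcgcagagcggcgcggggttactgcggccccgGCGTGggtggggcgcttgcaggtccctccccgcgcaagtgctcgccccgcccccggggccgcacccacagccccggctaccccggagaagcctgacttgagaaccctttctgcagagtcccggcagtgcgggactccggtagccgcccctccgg
SRD5A3 at chr4:55345992-55346291 (+): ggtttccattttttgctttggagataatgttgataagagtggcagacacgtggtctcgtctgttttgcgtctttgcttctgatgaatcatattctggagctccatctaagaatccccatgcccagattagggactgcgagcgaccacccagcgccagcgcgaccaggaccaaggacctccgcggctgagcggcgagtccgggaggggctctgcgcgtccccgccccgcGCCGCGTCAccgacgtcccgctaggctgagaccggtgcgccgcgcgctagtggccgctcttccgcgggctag
CYP19A1 at chr15:51242980-51243279 (-): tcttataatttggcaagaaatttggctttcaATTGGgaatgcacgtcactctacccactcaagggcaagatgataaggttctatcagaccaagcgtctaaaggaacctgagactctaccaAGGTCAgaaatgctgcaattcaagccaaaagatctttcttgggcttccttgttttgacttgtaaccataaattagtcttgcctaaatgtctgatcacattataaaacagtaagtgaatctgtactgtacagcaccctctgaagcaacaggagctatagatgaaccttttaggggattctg

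Motifs of 4 kinds were searched on both strands. The NRF2 element TGACNNNGC was held by 13.3% of all 35116 promoter windows and by 1 of the 15 member windows, that of SRD5A3, where it lies on the opposite strand from position -22. The xenobiotic element GCGTG was held by 36.5% of all windows and by 3 of 15, with 3 matches in SRD5A1, 2 in HSD17B8 and 1 in HSD17B3. The nuclear receptor motif AGGTCA was held by 13.8% of all windows and by 2 of 15, both of CYP19A1. The CCAAT box CCAAT was held by 34.6% of all and by 9 of 15, which are windows of CYP19A1, HSD17B8, AKR1C1 and AKR1C3. Most of the 9 are of CYP19A1, and windows of the same gene are not independent. The CYP19A1 windows at chr15:51242980-51243279 and chr15:51243196-51243495 overlap and hold the same box, so these shares cannot be read as an excess. The longest run shared by the 3 member windows of AKR1C1 and AKR1C3 and by the window of AKR1C2 is ATTGGTTAACCA, 12 bases that begin with a reversed CCAAT box and start 77 bases before the AKR1C1 start site and 73 and 86 bases before those of AKR1C3. This run was picked after the sequences were seen and occurs in 5 of the 35116 windows (0.0142%), the 4 AKR1C windows and 1 of PPFIA2. These matches describe letters only, and where a window holds no match nothing follows for the factor.

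In VEH the levels of the 10 genes spanned a wide range. HSD17B4 was the most abundant at 51.0 ± 2.93 TPM (SD, n = 4), above 94.3% of the tested genes. HSD17B12 at 15.7 ± 2.37 and AKR1C3 at 15.1 ± 1.24 followed, with overlapping samples. SRD5A1 (5.997 ± 0.288) stood apart from its neighbours, and CYP19A1 (3.29 ± 1.03) overlapped with SRD5A3 (2.86 ± 0.355), which overlapped with HSD17B8 (2.48 ± 0.398). Of the enzymes dedicated to strong sex steroids, HSD17B1, which reduces estrone to estradiol, stood at 0.978 ± 0.0619 TPM and HSD17B3, which makes testosterone in the testis, at 0.238 ± 0.157 TPM, with AKR1C1 between them at 0.698 ± 0.0822 TPM. AKR1C3 was thus the most abundant of the 3 members that form testosterone or estradiol as their known main steroid reaction. In CJ28 the order differed from VEH in 2 places, AKR1C3 standing above HSD17B12 without overlap and HSD17B8 above SRD5A3 with overlap, and in MET AKR1C3 was also second without overlap.

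**Figure D1:**
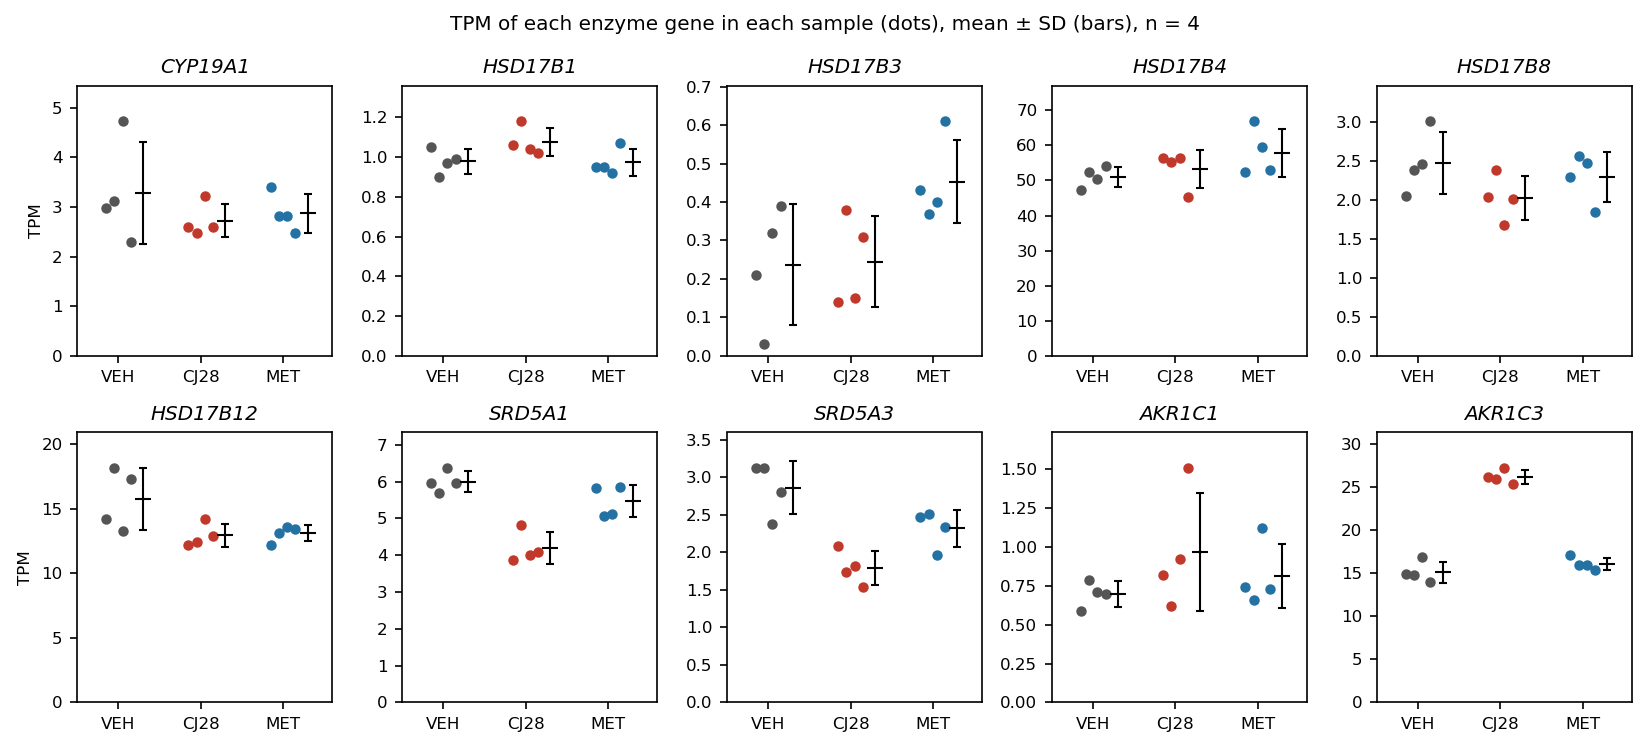
TPM (vertical axis, from 0, a separate scale for each gene) of the 10 genes in VEH, CJ28 and MET; dots are the 4 samples of a group and bars the mean ± SD. AKR1C3 in CJ28 lies between 25.34 and 27.26 TPM, above all VEH and MET samples, and SRD5A1 in CJ28 lies below all of them.

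Between CJ28 and VEH, AKR1C3 rose, SRD5A1, SRD5A3 and HSD17B12 fell, and the other 5 tested members did not pass the test. Calls were made at an adjusted p under 0.05 (limma on log2(TPM + 0.1), Benjamini-Hochberg over all tested genes). The 4 called members are 44.4% of the 9 tested, beside the 57.0% of all tested genes called in this comparison. The 1 rise and 3 falls stand beside 19.9% and 37.1% of all genes. Shares of 9 genes are coarse, and whether they differ from the background was not tested. They also depend on which enzymes are listed. Of 8 other tested enzymes of the same families, given further on, 6 were called. In 3 members the groups did not overlap, as they did not in 50.3% of all genes. The median log2 fold change was -0.22 over the members and -0.13 over all tested genes, and no member changed by as much as 1 on the log2 scale.

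AKR1C3 (ENSG00000196139.14, chr10:5035354-5107686, plus strand) encodes an aldo-keto reductase that converts androstenedione to testosterone and also makes prostaglandin F. It was measured at 14.86, 14.76, 16.88 and 13.97 TPM in the VEH samples, at 26.15, 26.0, 27.26 and 25.34 in CJ28, and at 17.08, 16.01, 15.98 and 15.4 in MET. All 4 CJ28 samples stood above all 8 others, and VEH and MET overlapped. The mean in CJ28 was 26.2 ± 0.797 TPM, 1.73-fold that of VEH, a log2 fold change of 0.79 (SE 0.0554, 95% interval 0.67 to 0.91, limma adjusted p = 1.03e-07). Against MET it was 1.62-fold, a log2 fold change of 0.70 (interval 0.58 to 0.82, limma adjusted p = 3.47e-07). MET against VEH gave 0.09 (interval -0.03 to 0.21, limma adjusted p = 0.933). With TPM divided by median-of-ratios factors the rise over VEH was 0.94, and with structural and mitochondrial RNA left out 0.92.

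AKR1C3 belongs to a cluster of near copies on chromosome 10, and where a read fits more than 1 of them RSEM assigns it in parts. AKR1C1 (ENSG00000187134.14, chr10:4963253-4983283, plus strand), which inactivates progesterone by reduction at carbon 20, had 0.59, 0.79, 0.71 and 0.7 TPM in VEH, 0.82, 0.62, 0.92 and 1.51 in CJ28 and 0.74, 0.66, 1.12 and 0.73 in MET. The groups overlapped and the sample CJ28-4 was the highest of the 12. The log2 fold change in CJ28 against VEH was 0.36, with an interval of -0.14 to 0.86 that includes both no change and the change of AKR1C3 (limma adjusted p = 0.201). It was 0.50 with median-of-ratios scaling (limma adjusted p = 0.0832) and 0.51 without structural and mitochondrial RNA (adjusted p = 0.101). AKR1C2, which is not a member and which inactivates dihydrotestosterone, rose from 2.41 ± 0.287 TPM in VEH to 3.39 ± 0.328 in CJ28 without overlap, a log2 fold change of 0.48 (limma adjusted p = 0.00151). AKR1C4, the liver form, was listed at 0 in every VEH and MET sample and at no more than 0.03 TPM in CJ28.

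The sum over the 4 AKR1C genes was examined because reads may be divided among them. Since TPM is corrected for length and the main transcripts differ in length (6543 bases for AKR1C1, 3215 for AKR1C2 and 1186 for AKR1C3), this sum too depends in part on that division. It was 17.7, 18.09, 20.33 and 16.77 TPM in VEH, 30.11, 30.4, 31.31 and 30.41 in CJ28 and 20.25, 18.96, 19.72 and 18.99 in MET. CJ28 lay above both other groups without overlap, at 1.68-fold the VEH mean (difference 12.33 TPM, exact permutation p = 0.0286, two-sided, the smallest that 4 against 4 samples allow) and 1.57-fold the MET mean (exact permutation p = 0.0286). MET exceeded VEH by 1.26 TPM (exact permutation p = 0.2). AKR1C3 made up 83.0% ± 0.997 of the sum in VEH, 85.7% ± 1.72 in CJ28 and 82.7% ± 1.92 in MET, so that it carried most of the difference in the sum. Of the stretches of 100 bases in the main AKR1C3 transcript (GENCODE), 6.62% occur in AKR1C2 and 1.75% in AKR1C1, while 25.6% of those of AKR1C2 occur in AKR1C1. The level of AKR1C3 is thus less exposed to the division of reads than the split between AKR1C1 and AKR1C2.

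**Figure D2:**
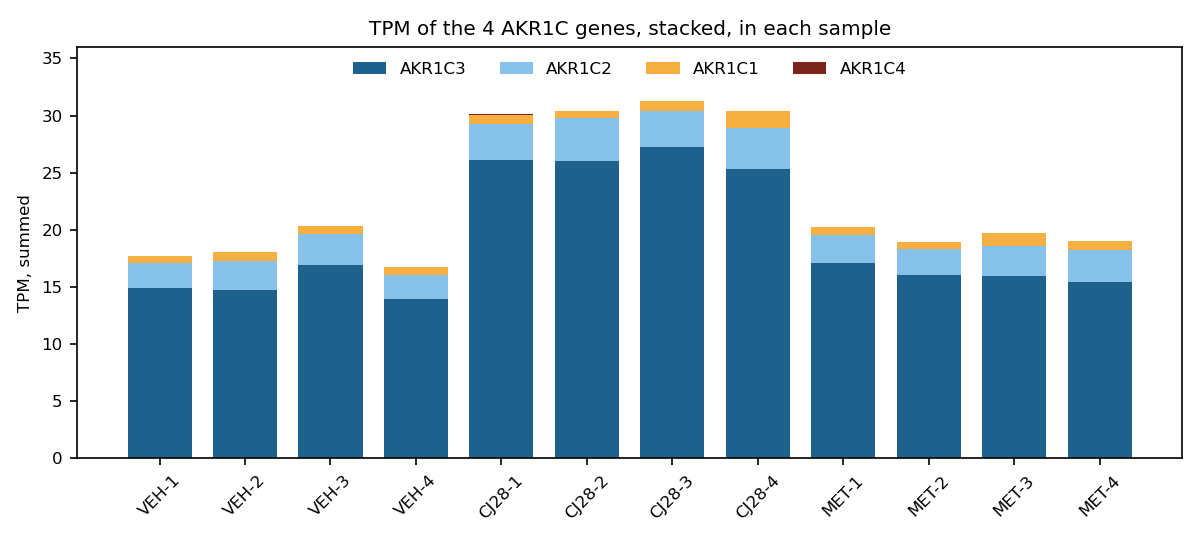
Stacked TPM (vertical axis, from 0) of AKR1C3, AKR1C2, AKR1C1 and AKR1C4 in each of the 12 samples. The summed height is 30.11 to 31.31 TPM in the CJ28 samples and 16.77 to 20.33 TPM in the VEH and MET samples, and AKR1C3 is the tallest segment in each.

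Both SRD5A members fell in CJ28. SRD5A1 (ENSG00000145545.12, chr5:6633427-6674386, plus strand), the 5alpha-reductase found outside the genital tract, had 5.96, 5.68, 6.38 and 5.97 TPM in VEH, 3.86, 4.83, 4.01 and 4.1 in CJ28 and 5.83, 5.06, 5.13 and 5.86 in MET. Every CJ28 sample was below every VEH and MET sample. Its mean was 1.43-fold lower than in VEH, a log2 fold change of -0.51 (SE 0.0779, interval -0.68 to -0.34, limma adjusted p = 0.000121), and the difference from MET was -0.38 (interval -0.54 to -0.21, limma adjusted p = 0.00128). MET against VEH gave -0.13 (interval -0.30 to 0.04, limma adjusted p = 0.933). SRD5A2, the 5alpha-reductase of the prostate, was too low to be tested.

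SRD5A3 (ENSG00000128039.11, chr4:55346242-55373100, plus strand) encodes the polyprenol reductase of dolichol synthesis, named for its likeness to the 5alpha-reductases. It had 3.13, 3.13, 2.38 and 2.81 TPM in VEH, 2.09, 1.74, 1.82 and 1.54 in CJ28 and 2.47, 2.51, 1.96 and 2.34 in MET. CJ28 lay below VEH without overlap, while the lowest MET sample fell within the range of CJ28. The mean was 1.59-fold lower than in VEH, a log2 fold change of -0.64 (SE 0.117, interval -0.90 to -0.39, limma adjusted p = 0.000483). The difference from MET, -0.35 (limma adjusted p = 0.0219), was no longer called after median-of-ratios scaling (-0.24, limma adjusted p = 0.096), without structural and mitochondrial RNA (-0.24, adjusted p = 0.12) or without CJ28-4, MET-1 or MET-2, with limma adjusted p of 0.0653, 0.057 and 0.0605. Both falls against VEH held under the 2 scalings, at -0.36 and -0.39 for SRD5A1 and -0.50 and -0.53 for SRD5A3. The list held 3 other dolichol genes, which did not move alike in CJ28. DOLK, the kinase that acts on dolichol, fell from 11.7 ± 0.280 to 7.57 ± 0.340 TPM (log2 fold change -0.62, limma adjusted p = 6.7e-08). Of the subunits of the enzyme that makes the polyprenol chain, named here beside DOLK after their values were seen, DHDDS did not pass the test (0.03, limma adjusted p = 0.738; called higher, at 0.18, with median-of-ratios scaling, adjusted p = 0.0282), and NUS1 was called lower (-0.23, limma adjusted p = 0.0281), a call lost under both scalings (adjusted p = 0.373 and 0.23).

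Aromatase did not pass the test in any comparison. CYP19A1 (ENSG00000137869.15, chr15:51208057-51338601, minus strand) had 2.99, 3.13, 4.73 and 2.29 TPM in VEH, 2.59, 2.48, 3.22 and 2.6 in CJ28 and 3.4, 2.81, 2.81 and 2.47 in MET. The groups overlapped, and VEH held both the highest and the lowest of the 12 values. The log2 fold changes were -0.22 for CJ28 (interval -0.61 to 0.17, limma adjusted p = 0.309) and -0.15 for MET (interval -0.54 to 0.24, limma adjusted p = 0.965), so that a fall of up to about 0.6 could not be seen or set aside with these samples. The value for CJ28 turned on single samples, at -0.04 without VEH-3 and -0.37 without VEH-4. It was also nearer to no change under both scalings. With median-of-ratios factors it was -0.07 (limma adjusted p = 0.764), and without structural and mitochondrial RNA -0.1 (adjusted p = 0.675). The fall of the supply enzyme CYP17A1 in the same samples is given further on.

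The dedicated 17beta-hydroxysteroid dehydrogenases of gonads and placenta were low throughout. HSD17B1 (ENSG00000108786.10, chr17:42549214-42555213, plus strand) ranged from 0.9 to 1.18 TPM over the 12 samples, with means of 0.978, 1.08 and 0.973 in VEH, CJ28 and MET, and the groups overlapped. Its log2 fold change in CJ28 against VEH was 0.12 (interval -0.09 to 0.34, limma adjusted p = 0.312), and it became a call only with median-of-ratios scaling (0.26, limma adjusted p = 0.044). Without structural and mitochondrial RNA it was 0.25 (limma adjusted p = 0.0626). An antisense RNA over HSD17B1, AC067852.2, was listed at 1.32 to 2.16 TPM, above HSD17B1 itself. The libraries were stranded, but the sources used here do not say whether counting used strand, and without it reads of the pair cannot be told apart. HSD17B3 (ENSG00000130948.10, chr9:96235306-96302176, minus strand) was too low for the fit, with 0.21, 0.03, 0.32 and 0.39 TPM in VEH, 0.14, 0.38, 0.15 and 0.31 in CJ28 and 0.43, 0.37, 0.4 and 0.61 in MET. The MET mean was the highest, but MET overlapped with both other groups, and the exact permutation p was 0.0571 against VEH and against CJ28, or 0.171 after adjustment over the 30 tests of 10 members in 3 comparisons.

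Among the 3 members with major roles in fatty acid metabolism, HSD17B12 alone was called, and its call depended on the processing. HSD17B12 (ENSG00000149084.13, chr11:43680680-43856617, plus strand), the 3-ketoacyl-CoA reductase of fatty acid elongation that can also reduce estrone, had 14.21, 18.16, 13.26 and 17.32 TPM in VEH, 12.21, 12.4, 14.2 and 12.85 in CJ28 and 12.2, 13.14, 13.58 and 13.44 in MET. The VEH samples were spread, and both treated groups lay in the lower part of their range or under it. The log2 fold change was -0.27 in CJ28 (interval -0.47 to -0.07, limma adjusted p = 0.0227) and -0.25 in MET (interval -0.45 to -0.05, limma adjusted p = 0.933), comparisons that share the VEH samples, and CJ28 against MET gave -0.02 (interval -0.22 to 0.18). The near equal values with unlike adjusted p-values follow from the adjustment, which is stricter where few genes differ. The call in CJ28 was lost under both scalings (-0.12, limma adjusted p = 0.237, and -0.15, limma adjusted p = 0.191), with all genes above 0 in the fit (adjusted p = 0.052) and without VEH-2, VEH-4, CJ28-1 or CJ28-2, with limma adjusted p between 0.0558 and 0.0701.

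HSD17B4 (ENSG00000133835.16, chr5:119452473-119637199, plus strand), the peroxisomal bifunctional enzyme that also oxidises estradiol, had 47.19, 52.33, 50.47 and 54.04 TPM in VEH, 56.43, 55.35, 56.32 and 45.28 in CJ28 and 52.32, 66.9, 59.56 and 52.98 in MET. Its groups overlapped, and its log2 fold changes were 0.06 in CJ28 (interval -0.13 to 0.25) and 0.18 in MET (interval -0.01 to 0.37). The CJ28 value was 0.21 with median-of-ratios scaling (limma adjusted p = 0.0559) and 0.19 without structural and mitochondrial RNA (adjusted p = 0.0921). HSD17B8 (ENSG00000204228.4, chr6:33204655-33206831, plus strand), part of the ketoacyl reductase of mitochondrial fatty acid synthesis, had means of 2.48 ± 0.398, 2.03 ± 0.286 and 2.29 ± 0.320 TPM in VEH, CJ28 and MET, again with overlap. Its log2 fold change in CJ28 was -0.27 (interval -0.57 to 0.02, limma adjusted p = 0.108), and it was called only without VEH-1 (-0.36, limma adjusted p = 0.0497). Under the same 2 scalings it was -0.13 (limma adjusted p = 0.434) and -0.16 (adjusted p = 0.342).

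**Figure D3:**
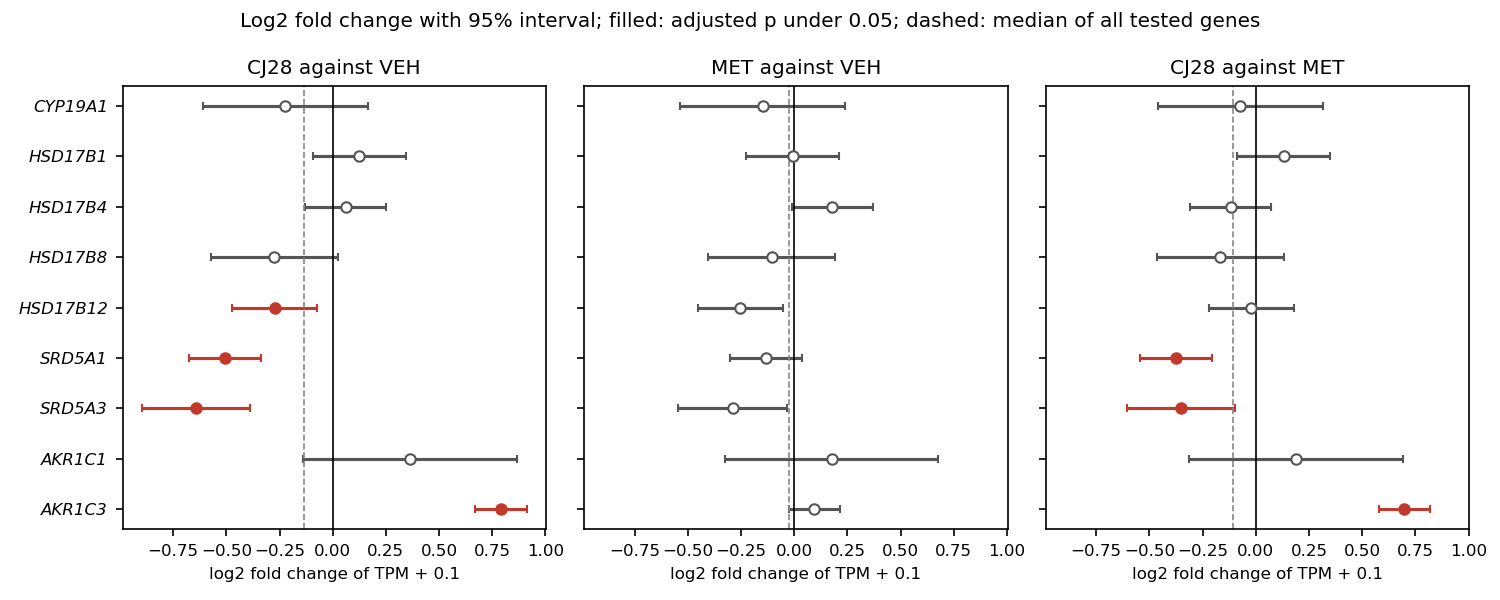
Log2 fold change of TPM + 0.1 (horizontal axis) with its 95% interval for the 9 tested members in the 3 comparisons; filled red points have an adjusted p under 0.05 and the dashed line is the median of all tested genes. AKR1C3 stands at 0.79 and 0.70 in the comparisons of CJ28 with VEH and with MET, and no member is filled for MET against VEH.

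MET against VEH gave 0 called members of 9 by limma, in a comparison where 0.00595% of all tested genes, a single gene, were called. Without adjustment, limma put 2 members under 0.05, HSD17B12 and SRD5A3, and 874 of the 16815 genes. The exact permutation tests gave no member with p under 0.05, and in none did the groups fail to overlap, against 2.81% of all genes. The log2 fold changes ran from -0.29 for SRD5A3 to 0.18 for HSD17B4, with a median of -0.11 against -0.03 for all genes. The widest interval, that of AKR1C1, reached from -0.33 to 0.68, so that small changes under MET could not be detected for the low genes.

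CJ28 and MET were given at the same dose for the same time, and 3 of the 9 members differed between them, AKR1C3 higher and SRD5A1 and SRD5A3 lower in CJ28. These are 33.3% of the members, beside 55.5% of all tested genes (20.9% higher and 34.6% lower). In 2 of them, AKR1C3 and SRD5A1, the groups did not overlap, as in 50.2% of all genes. For HSD17B12, CYP19A1 and HSD17B4 the differences were -0.02, -0.07 (interval -0.46 to 0.31) and -0.12 (interval -0.31 to 0.07), and the intervals show how large a difference could have been missed. In exact permutation tests of TPM, 5 of the 30 tests reached the smallest possible p of 0.0286, which is 0.171 after adjustment over the 30.

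The 11 other enzymes of the same families moved in both directions in CJ28. Of 8 tested, 3 rose and 3 fell against VEH, with a median log2 fold change of -0.02, and HSD17B2, SRD5A2 and AKR1C4 were too low to be tested. For this list and those that follow, the background in CJ28 against VEH is the 19.9% of all tested genes that rose, the 37.1% that fell and their median of -0.13. HSD17B14, a dehydrogenase that can oxidise estradiol in the test tube, was measured at 3.55, 3.22, 2.89 and 3.57 TPM in VEH and 11.63, 13.63, 12.61 and 15.05 in CJ28, with MET at 3.02 to 3.9. It rose more than any member, by 1.97 on the log2 scale (limma adjusted p = 5.93e-09), without overlap. HSD17B13, a lipid droplet protein, rose from 0.435 ± 0.0940 to 1.05 ± 0.0741 TPM (1.12, limma adjusted p = 6.02e-05), and AKR1C2 was the third that rose. HSD17B13 was tested only because of its level in CJ28. Outside CJ28, only VEH-3, at 0.55 TPM, reached the 0.5 TPM of the filter, which limits its call. With the filter on mean TPM of 1 or more, 2 rose and 3 fell of 7 tested.

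HSD17B7, a reductase of cholesterol synthesis that also reduces estrone, had 14.3, 12.89, 12.29 and 11.61 TPM in VEH, 5.9, 5.51, 5.81 and 5.4 in CJ28 and 11.36, 10.96, 9.82 and 11.5 in MET. CJ28 was lower than VEH by a log2 fold change of -1.16 (limma adjusted p = 2.34e-08). The MET samples also lay below all VEH samples, at a log2 fold change of -0.22 that limma did not call (adjusted p = 0.933, exact permutation p = 0.0286). Its pseudogene HSD17B7P2 holds 13.6% of the 100-base stretches of HSD17B7 and was listed at 1.32 to 2.05 TPM, so part of the reads may be divided between them. HSD17B11, a lipid droplet enzyme, fell from 32.05 ± 0.686 to 18.3 ± 1.01 TPM (-0.81, limma adjusted p = 2.9e-08). HSD17B10, a mitochondrial enzyme of isoleucine breakdown and tRNA processing, fell from 34.2 ± 0.656 to 25.05 ± 0.372 TPM (-0.45, limma adjusted p = 7.28e-07). The count of 3 rises and 3 falls was the same under both scalings.

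**Figure D4:**
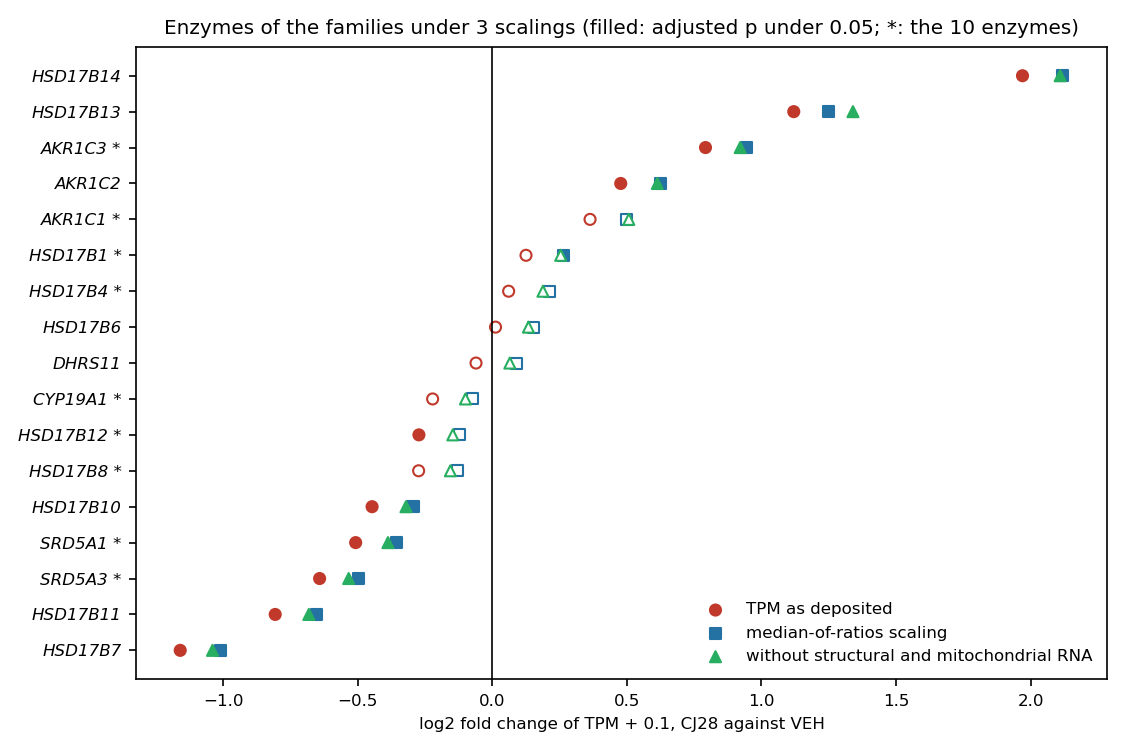
Log2 fold change of TPM + 0.1 in CJ28 against VEH (horizontal axis) for the 17 tested enzymes, members marked with an asterisk, with TPM as deposited (circles), after median-of-ratios scaling (squares) and without structural and mitochondrial RNA (triangles); filled symbols have an adjusted p under 0.05. Both scalings move each gene to the right, HSD17B12 loses its call under both and HSD17B1 gains one under median-of-ratios scaling, while HSD17B14, AKR1C3, SRD5A1, SRD5A3 and HSD17B7 keep theirs.

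The scaling matters for how a split of rises and falls is read. Median-of-ratios factors moved the median log2 fold change of all genes in CJ28 against VEH from -0.13 to 0.01, and the calls over all genes from 3346 higher and 6231 lower to 4925 higher and 4430 lower. The members went from 1 higher and 3 lower to 2 higher (AKR1C3 and HSD17B1) and 2 lower (SRD5A1 and SRD5A3), and without structural and mitochondrial RNA to 1 higher and 2 lower. No member changed the sign of its value in this comparison.

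Of 8 tested genes that supply precursors or handle their sulfates, 5 fell and 0 rose in CJ28, with a median log2 fold change of -0.75, and the count was 5 under both scalings. CYP17A1, which opens the route to androgens, had 47.33 to 49.66 TPM in VEH, 9.13 to 9.78 in CJ28 and 46.71 to 50.9 in MET, a log2 fold change of -2.35 in CJ28 (limma adjusted p = 1.69e-13). HSD3B2, the next enzyme toward androstenedione, was low and fell from 0.863 to 0.193 TPM (-1.73, limma adjusted p = 4.46e-06). SULT2A1, which sulfates dehydroepiandrosterone, fell from 10.2 ± 0.823 to 3.75 ± 0.141 TPM (-1.42, limma adjusted p = 9.38e-10). STS, which removes the sulfate, fell from 1.52 ± 0.0200 to 0.608 ± 0.0954 TPM (-1.21, limma adjusted p = 1.29e-06). The fifth, CYB5A, the cofactor of the lyase step of CYP17A1, named because the count is small, fell by 0.30 on the log2 scale (limma adjusted p = 0.000126). POR, the electron donor and the most abundant gene of the list in VEH at 56.3 ± 2.43 TPM, did not pass the test (-0.08, limma adjusted p = 0.253), nor did PAPSS1 (-0.04, limma adjusted p = 0.59) and PAPSS2 (-0.02, limma adjusted p = 0.864), which make the sulfate donor. The values of these 3 were above 0 under both scalings.

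Genes that clear androgens and estrogens moved in both directions in CJ28. CYP1A1, which hydroxylates estrogens and foreign compounds, went from 0.39 to 0.71 TPM in VEH to 62.9 to 67.94 TPM in CJ28, a log2 fold change of 6.68 (limma adjusted p = 1.92e-12), and had 0.52 to 0.69 TPM in MET. CYP1B1, which acts on estrogens too, rose by 0.82 (limma adjusted p = 0.00362) from a level of 0.305 TPM. It was tested only because of its level in CJ28 (0.55 to 0.68 TPM). Its VEH (0.24 to 0.41) and MET (0.31 to 0.49) samples were all under the 0.5 TPM of the filter, which limits its call. SULT1A1, a phenol sulfotransferase with near copies, fell by 0.61 on the log2 scale (limma adjusted p = 7.23e-06). The estrogen sulfotransferase SULT1E1, the 4 listed UGT2B genes and AKR1D1 were too low to be tested.

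Estrogen receptors were present at low levels. ESR1 (estrogen receptor alpha) stood at 2.54 ± 0.301 TPM in VEH and 1.82 ± 0.286 in CJ28, with overlap, and fell by 0.47 on the log2 scale (limma adjusted p = 0.0132), a call lost under both scalings (adjusted p = 0.079 and 0.0678). ESR2 (estrogen receptor beta) stood at 1.67 ± 0.137 TPM in VEH and 2.04 ± 0.0868 in CJ28, without overlap, and rose by 0.28 (limma adjusted p = 0.0236), a call lost without VEH-3 (0.22, adjusted p = 0.0697), CJ28-2 (0.27, adjusted p = 0.0504) or CJ28-3 (0.26, adjusted p = 0.0601). GPER1 was too low to be tested.

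Partners of HSD17B4, HSD17B8, HSD17B12 and SRD5A3 in their lipid pathways were split. Of 15 tested, 4 rose and 7 fell in CJ28, against 6 and 5 after median-of-ratios scaling and 5 and 5 without structural and mitochondrial RNA, and the median log2 fold change was -0.15. HACD3, the dehydratase that acts after HSD17B12 in fatty acid elongation and the most abundant of the list, fell from 57.4 ± 1.35 to 34.1 ± 0.865 TPM (-0.75, limma adjusted p = 5.3e-10). TECR, the reductase of the last elongation step, fell from 28.6 ± 3.47 to 19.9 ± 3.46 TPM (-0.53, limma adjusted p = 0.00102), while OXSM, the ketoacyl synthase of the mitochondrial pathway of HSD17B8, rose from 4.78 ± 0.460 to 6.62 ± 0.813 TPM (0.46, limma adjusted p = 0.00408). DOLK, given with SRD5A3, had the second largest change of the list after HACD3.

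The AKR1C genes are known targets of the oxidative stress factor NRF2, and other NRF2 targets were counted beside them. Of 9 tested, 8 rose and 0 fell in CJ28, also under both scalings, with a median log2 fold change of 0.52. HMOX1 (heme oxygenase) rose from 5.11 ± 0.415 to 25.5 ± 0.772 TPM (2.30, limma adjusted p = 1.13e-10), and SLC7A11 (the cystine transporter) by 1.55 (limma adjusted p = 2.36e-10). TXNRD1 (thioredoxin reductase), the most abundant of the list, rose from 75.6 ± 2.09 to 124.4 ± 2.67 TPM (0.72, limma adjusted p = 3.07e-09), and SRXN1 (sulfiredoxin) by 0.69 (limma adjusted p = 4.24e-08), which are of the size seen for AKR1C3. AKR1B10 was too low to be tested. Whether NRF2 took part in the rise of AKR1C3 was not tested.

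In MET, limma called 0 genes of each of these 6 lists. Without adjustment, limma put 1 of their tested genes under 0.05, HSD17B7, which was also the only one of them under 0.05 in the exact permutation test.

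**Figure D5:**
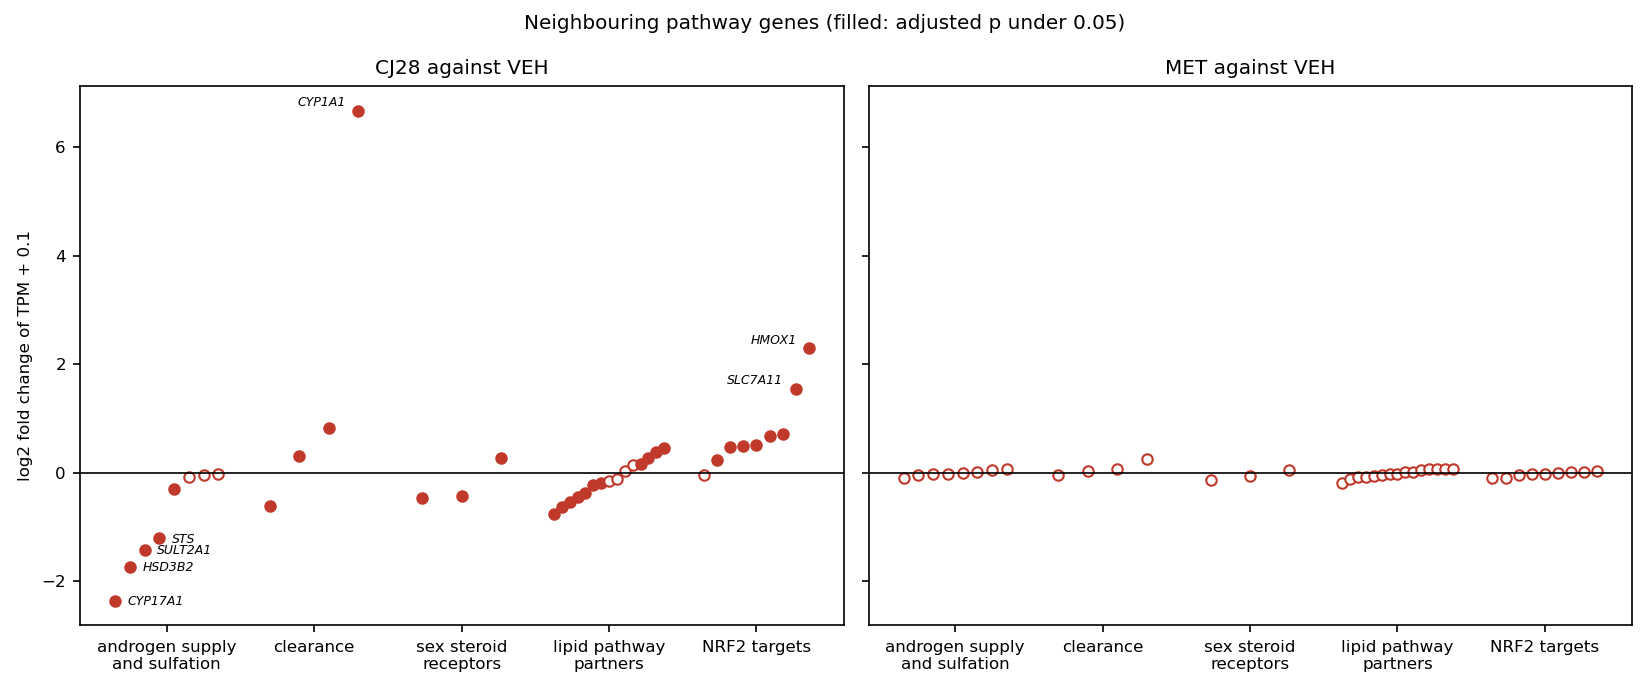
Log2 fold change of TPM + 0.1 (vertical axis) for the tested genes of 5 neighbouring lists, ordered by value within each list, in CJ28 against VEH (left) and MET against VEH (right); filled points have an adjusted p under 0.05. CYP1A1 stands highest at 6.68 and CYP17A1 lowest at -2.35 in CJ28, and no point is filled for MET.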

How the data were processed

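RNA-seq libraries of 12 samples (4 each of VEH, CJ28 and MET, grouped by their labels) were made from ribosomal RNA-depleted total RNA with a stranded kit. Per the labels and the study's methods, the authors trimmed reads with Cutadapt (version 2.8), mapped them to GRCh38 with STAR (version 2.7.10b) and quantified genes with RSEM (version 1.3.3). The deposited table holds TPM for 60662 genes with 2 decimals; TPM has the same sum in every sample and keeps no depth, so no counting error could be given. The study's own tests used counts, which were not analysed here, and the annotation version is not given in the sources used here. All 12 sample columns were used. No count test was run.

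Here limma (version 3.58.1, in R version 4.3.3; lmFit, then eBayes with trend) was run on log2(TPM + 0.1) for genes that reached TPM 0.5 in 4 or more samples, on all 12 samples without covariates, and two-sided p-values were adjusted by Benjamini-Hochberg over the 16815 genes. A pseudocount understates the change of low genes. Exact permutation tests, sums and shares used Python (version 3.11.15) with scipy (version 1.17.1). The fit was tested on simulated data. The members, lists and motifs were chosen with earlier results of these data known. Named are all members, AKR1C2, AKR1C4, the markers and, of each list, up to 4 called genes with the largest change in CJ28, any called in MET and the most abundant in VEH; no member reached the log2 change of 1 at which genes of like pattern would be named. The labels call the replicates biological, and p-values measure the spread between these cultures of 1 line. Alternatives were pseudocounts of 1 and 0.01, no filter, a filter on mean TPM (1 or more), scaling by median-of-ratios factors, TPM rescaled without RN7SL1, RN7SL2, RN7SK and mitochondrial genes, fits of 2 groups, a replicate block, no trend, and leaving out each sample. Gene positions are those of the table, promoters those of RefSeq (GRCh38.p14), and shared stretches were counted between GENCODE transcripts. Some genes of the lists are not reported here.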

Additional observations from a re-analysis of the deposited data

Results flagged for a closer look

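In each of the 30 sets of 4 TPM values (10 members in 3 groups), the gap between an extreme sample and its nearest neighbour was divided by the range and compared with Dixon's 95% critical value, which chance exceeds in about 1 of 20 sets. It was exceeded in 2 sets. For CYP19A1, the sample CJ28-3 stood at 3.22 TPM, above the 2.48 to 2.6 TPM of the other CJ28 samples (0.838). For HSD17B4, the sample CJ28-4 stood at 45.28 TPM, below the 55.35 to 56.43 TPM of the others (0.903).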

How the results depend on the processing

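Over all alternatives, 3 to 5 members were called in CJ28 against VEH, 2 to 3 in CJ28 against MET and 0 in MET against VEH. The log2 fold change in CJ28 against VEH ranged from 0.76 to 0.94 for AKR1C3, from -0.58 to -0.36 for SRD5A1 and from -0.73 to -0.46 for SRD5A3, and these 3 were called under every alternative. Calls that came or went were those of HSD17B12, HSD17B1 and HSD17B8 in CJ28 against VEH and of SRD5A3 in CJ28 against MET, with the values given beside them; the cause was not tested. The rise of the AKR1C sum was 1.86-fold with median-of-ratios scaling and 1.83-fold without structural and mitochondrial RNA, and leaving out single samples gave differences of 11.85 to 13.04 TPM. The exact tests of the members, repeated under both scalings (chosen after seeing the data), gave 5 to 7 of 30 with p under 0.05. Lipid partners called in CJ28 ranged from 8 to 12. No called value changed sign. With the replicate number as a block, 4, 0 and 3 members were called in the 3 comparisons, and 3314 genes higher and 6232 lower over all genes in CJ28 against VEH, against 3346 and 6231 without it. The labels give a number but no pairing. Deviations of equal numbers did not correlate (r from -0.124 to 0.0394 over 12 pairs), which cannot exclude a batch shared by them. The block changed no call of a member. Precision is limited by 4 samples a group and, for genes under about 1 TPM, by a depth that the table does not give.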
